A study of Mus musculus with 6 samples.

Results

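The 10 genes described here encode the constant regions of the mouse antibody heavy chains (Ighm, Ighd, Ighg3, Ighg1, Ighg2b, Ighg2c, Ighe and Igha), the constant region of the kappa light chain (Igkc) and the joining chain (Jchain). They were taken by name from the deposited table of 56884 genes, and all 10 were found. RNA was sequenced from 6 whole ectopic lesions, 3 per group and 1 library per lesion, in a mouse model of endometriosis that asked how loss of the DNA methyltransferase Dnmt3a in the grafted uterine tissue changes the lesion. Dnmt3a KO lesions grew from uterine tissue of Dnmt3a f/f:PR-Cre/+ females, in which Cre is made in cells that express the progesterone receptor. Control (WT) lesions grew from Dnmt3a f/f females, which carry the same floxed alleles without Cre. Donors were adult. Recipients in both groups were wild-type syngeneic C57BL/6J adult females carrying an estradiol pellet, so host cells in every lesion had an intact Dnmt3a gene, and transcripts of donor and host B lineage cells cannot be told apart. The labels give 4 weeks as the time for all 6 lesions and describe injected fragments, whereas the methods of the study describe a sutured fragment and a different day of collection.

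A B cell first makes IgM and IgD from one transcript by alternative splicing. Class switch recombination then deletes the intervening DNA and joins the same variable region to a downstream constant gene, which gives IgG, IgE or IgA. Plasma cells secrete the product in large amounts, and J chain links IgM and IgA into polymers that the polymeric immunoglobulin receptor of glandular epithelium carries into the lumen. In the uterus, antibody of mucosal type is known to be secreted by this route.

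The heavy chain genes lie on the minus strand of chromosome 12 (GENCODE M21 gene models on GRCm38), from Ighm at chr12:113418558-113422730, the first in the order of transcription, to Igha at chr12:113254830-113260236, the last. Igkc is a single exon at chr6:70726435-70726966 on the plus strand, and Jchain lies at chr5:88519809-88527891 on the minus strand. The submitters' notes name GRCm39 and the methods of the study GRCm38, so these positions belong to the M21 models and not necessarily to the counted ones.

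The end of the secreted coding sequence separates the isotypes that J chain joins from those that it does not. The last 45 coding bases, stop codon included, are shown for IgM, IgA and an IgG. Capitals mark the cysteine codon just before the last amino acid, through which IgM and IgA chains are joined to J chain and which Ighg1 lacks.
Ighm (chr12:113420867-113420911, minus strand): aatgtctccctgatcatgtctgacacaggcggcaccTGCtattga
Igha (chr12:113258768-113258812, minus strand): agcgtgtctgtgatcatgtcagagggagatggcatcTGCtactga
Ighg1 (chr12:113328976-113329020, minus strand): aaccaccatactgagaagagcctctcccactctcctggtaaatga

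The 4 IgG genes resemble each other, and their hinge exons are shown because reads of one subclass are told from those of another by such stretches. Capitals mark in-frame cysteine codons, which form the bonds between the paired heavy chains. There were 4 in Ighg1, 4 in Ighg2b, 3 in Ighg2c and 1 in Ighg3.
Ighg3 (chr12:113360529-113360576, minus strand): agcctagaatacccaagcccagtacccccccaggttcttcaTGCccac
Ighg1 (chr12:113329844-113329882, minus strand): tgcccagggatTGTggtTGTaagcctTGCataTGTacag
Ighg2b (chr12:113307261-113307326, minus strand): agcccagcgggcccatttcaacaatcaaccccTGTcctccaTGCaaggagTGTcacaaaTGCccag
Ighg2c (chr12:113288263-113288325, minus strand): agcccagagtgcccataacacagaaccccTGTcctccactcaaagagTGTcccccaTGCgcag

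Over the whole secreted transcripts, Ighg2b and Ighg2c were 86.4% identical, with a longest shared run of 78 bases. The other pairs of IgG genes were 74.2% to 76.8% identical, with longest shared runs of 28 to 41 bases. Read length and the treatment of reads with more than one match were not given in the sources used here, so the split between Ighg2b and Ighg2c is less certain than the others.

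The libraries held 45370342 to 57239184 counts. Dnmt3a itself was at 43.9 to 52.7 CPM (counts scaled to library size) in WT and at 30.3 to 36.2 CPM in KO lesions, without overlap. The lesions also differed in tissue content. Skeletal muscle markers summed to 27744 CPM in WT replicate 1 and 28983 CPM in WT replicate 3 but to 4.73 to 14.7 CPM in the other lesions, and pancreatic acinar markers summed to 5603 CPM in WT replicate 3 and to 7.39 to 16.2 CPM elsewhere. KO replicate 3 differed from KO replicates 1 and 2 in the sums of further marker lists. Adipocyte markers summed to 4212 against 490 and 875 CPM, and endometrial stroma markers to 7053 against 3253 and 2515 CPM. Erythroid markers summed to 726 against 80.5 and 54.3 CPM. Neutrophil markers summed to 9845 CPM in WT replicate 2 against 37.2 to 479 CPM in the other lesions. The part of these differences in the results below was not tested. Values without WT replicate 2 are given where leaving it out moved a result.

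The fitted log2 fold change of Dnmt3a KO over WT was below 0 for each of the 9 genes that could be tested. This direction was that of 48.6% of all tested genes, and none of the 9 passed adjustment. All 10 genes were highest in WT replicate 2, as were 24.2% of all tested genes. The summed CPM of the 8 heavy chain genes was 570, 6939 and 860 in WT replicates 1 to 3 and 417, 344 and 496 in KO replicates 1 to 3. Every control thus lay above every KO lesion, but WT replicate 2 was 8.07-fold above the next highest lesion, while the other 5 lesions spanned 2.50-fold. On the log2 scale the KO mean was lower by a difference of -1.86 (p = 0.1 in an exact permutation test, two-sided, which 3 against 3 lesions cannot go below). Without WT replicate 2 the difference was -0.76, with the KO lesions still below both controls (exact p = 0.1, the smallest for 2 against 3). The 10 genes took 0.0888%, 1.05% and 0.136% of all counts in the WT lesions and 0.0641%, 0.0591% and 0.0820% in the KO lesions. In whole lesions, fewer antibody-producing cells and less antibody RNA per cell cannot be told apart.

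**Figure D1:**
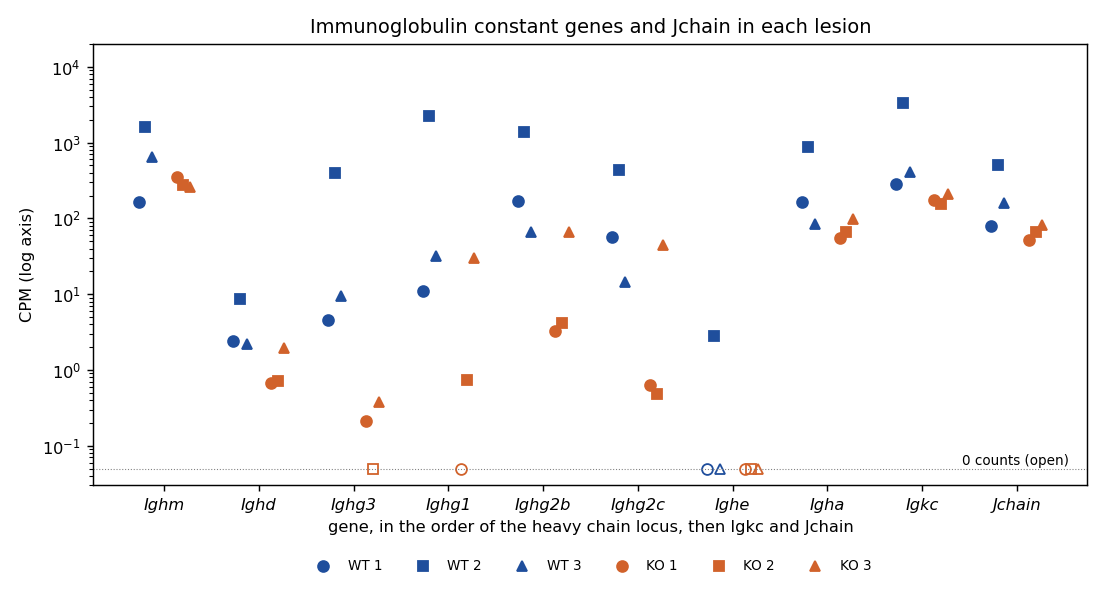
CPM (log axis) of the 10 genes in each of the 6 lesions, with WT lesions in blue, KO lesions in orange and one symbol per replicate number. Open symbols on the dotted line are lesions with 0 counts and have no place on the log axis. WT replicate 2 is the highest lesion for all 10 genes, and the groups do not overlap for Ighd, Ighg3 and Igkc.

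Of the 9 tested genes, 6 passed an unadjusted p under 0.05 with a log2 fold change below -1 in edgeR's quasi-likelihood test, namely Ighd, Ighg2b, Ighg3, Igha, Igkc and Jchain. The same rule called 5.85% of all 18177 tested genes lower. None of the 9 passed after Benjamini-Hochberg adjustment over all tested genes (adjusted p 0.321 to 0.442), a call that 0.0055% of all genes reached in this direction. DESeq2 with its default filters gave no p for Ighg1, Ighg3 and Ighe. Of the other members it called 1, Igkc (adjusted p = 0.0214), and it called 2.59% of the genes to which it gave a p lower. Without its filters it called 3 of the 10 and 2.49% of all genes lower. Limma voom called 0 of the 9 and 0.066% of all genes lower. The median log2 fold change of the 9 genes was -2.90, against 0.01 over all tested genes. The p-values measure the spread between these lesions.

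The count of 6 changed when some single lesions were left out. It was 1 without WT replicate 2 (5.86% of all genes by this rule). It was also 1 without KO replicate 1 or KO replicate 2, and the gene left was Ighg3 each time. Dropping either KO lesion also cut the call over all genes, from 1064 to 551 and 658 respectively. Each of the 6 log2 fold changes then moved less than when WT replicate 2 was dropped. For Igkc it went from -2.90 to -2.89 and -2.79, against -0.96. The cause of the lower counts was not tested. Without WT replicate 2, 2 genes had an unadjusted p under 0.05 with lower levels, Ighg3 and Igkc (9.64% of all genes did), none passed adjustment (2.09% of all genes did, lowest adjusted p of the 9 genes 0.151), and the median log2 fold change was -1.05 against 0.04 over all genes. Full separation, with all controls above all KO lesions, held for 3 of the 9 genes and for 8.74% of all tested genes. With WT replicate 2 set aside it held for 3 genes and for 17.3% of all genes. Both remaining controls were the lesions with high skeletal muscle markers, and 8 of 8 such markers then passed adjustment. Shares of all genes without WT replicate 2 thus include muscle genes.

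**Figure D2:**
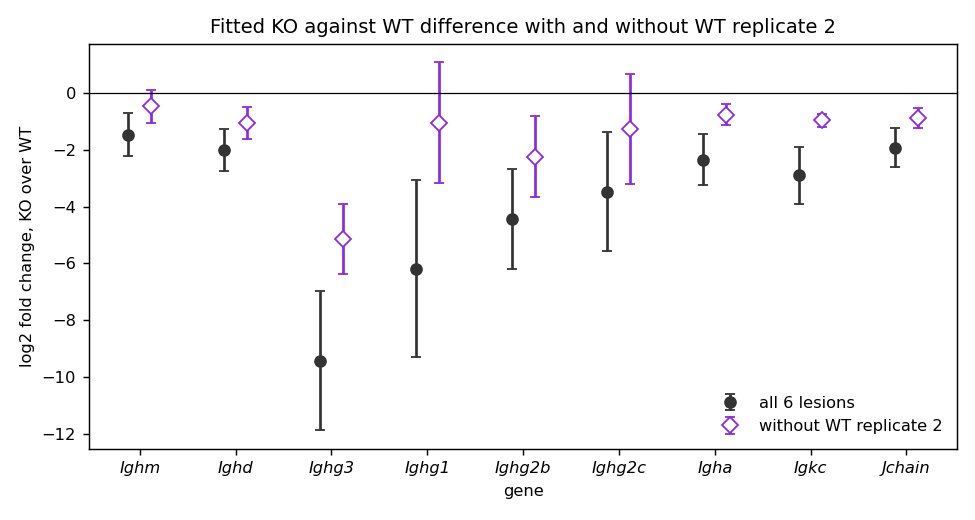
Fitted log2 fold change of KO over WT for the 9 tested genes, with bars of 1 standard error from edgeR. Filled circles use all 6 lesions and open diamonds leave out WT replicate 2. All points lie below 0, and each moves towards 0 without that lesion, from -9.43 to -5.14 for Ighg3 and from -1.47 to -0.46 for Ighm.

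Ighm, the heavy chain of naive B cells and of the IgM that plasma cells secrete, was at 162, 1627 and 651 CPM in controls against 356, 272 and 256 CPM in KO lesions. WT replicate 1 was the lowest of all 6, so the groups overlapped, and the log2 fold change of -1.47 (SE 0.76) had an adjusted p of 0.392 in edgeR and was -0.46 without WT replicate 2. Ighd, whose product sits beside IgM on mature naive B cells, was at 2.41, 8.71 and 2.18 CPM in controls against 0.667, 0.715 and 1.94 CPM in KO lesions. The groups did not overlap, though WT replicate 3 and KO replicate 3 were close. Its log2 fold change was -2.0 (SE 0.75, unadjusted p = 0.0361, adjusted p = 0.332 in edgeR). Leaving out WT replicate 2 gave -1.05 (adjusted p = 0.471), and it no longer passed the unadjusted threshold.

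Ighg3, an IgG typical of T cell-independent responses, had the lowest fitted ratio of the members. It had 212, 17453 and 441 counts in WT and 12, 0 and 18 counts in KO lesions, which is 4.53, 393 and 9.42 CPM against 0.211, 0 and 0.375 CPM. No KO lesion came near a control, also when WT replicate 2 was set aside. The log2 fold change was -9.43 (SE 2.45, unadjusted p = 0.0084, adjusted p = 0.321 in edgeR), and -5.14 without WT replicate 2 (adjusted p = 0.157). Because KO replicate 2 had no counts, where 3 counts would be 0.0596 CPM, the size of this fold depends on how the model treats zeros.

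Ighg1, the IgG class favoured by interleukin 4, varied widely within both groups. It was at 11.2, 2233 and 31.9 CPM in controls against 0, 0.735 and 30.4 CPM in KO lesions. KO replicate 3 was thus close to WT replicate 3 and above WT replicate 1, and the log2 fold change of -6.19 (SE 3.11) had an adjusted p of 0.380 in edgeR. It was -1.05 without WT replicate 2 and -11.02 without KO replicate 3, so its size rested on single lesions.

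Ighg2b and Ighg2c, the subclasses that engage the activating Fc receptors of macrophages and neutrophils, shared one pattern. Ighg2b was at 169, 1376 and 65.8 CPM in controls against 3.30, 4.17 and 67.0 CPM in KO lesions. Ighg2c was at 57.3, 429 and 14.4 CPM in controls against 0.632, 0.477 and 43.9 CPM in KO lesions. In both, KO replicates 1 and 2 were far below every other lesion and KO replicate 3 lay above WT replicate 3. The log2 fold changes were -4.44 (SE 1.77, unadjusted p = 0.0464, adjusted p = 0.335) and -3.48 (SE 2.10, adjusted p = 0.442) in edgeR. Leaving out WT replicate 2 gave -2.24 (adjusted p = 0.520) and -1.26 (adjusted p = 0.788), and Ighg2b then no longer passed the unadjusted threshold. Without KO replicate 3 they were -7.17 and -8.22.

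Igha, the heavy chain of mucosal antibody, was at 163, 870 and 84.5 CPM in controls against 55.9, 66.1 and 97.0 CPM in KO lesions. KO replicate 3 exceeded WT replicate 3. The log2 fold change was -2.35 (SE 0.89, unadjusted p = 0.0390, adjusted p = 0.332 in edgeR). It was -0.76 without WT replicate 2 (adjusted p = 0.428) and then no longer passed the unadjusted threshold. Ighe, the heavy chain that arms mast cells and basophils, had 123 counts in WT replicate 2 and 0 in the other 5 lesions. It was too low to be tested in the main fit.

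Igkc, the constant region of most mouse light chains, was at 285, 3298 and 412 CPM in controls against 176, 153 and 208 CPM in KO lesions. The groups did not overlap. Its log2 fold change was -2.90 (SE 1.00, unadjusted p = 0.0273, adjusted p = 0.328 in edgeR), and -0.96 without WT replicate 2 (adjusted p = 0.151). Jchain was at 79.4, 510 and 161 CPM in controls against 51.3, 65.7 and 80.8 CPM in KO lesions. KO replicate 3 was just above WT replicate 1, and the log2 fold change was -1.92 (SE 0.69, unadjusted p = 0.0308, adjusted p = 0.328 in edgeR). It was -0.87 without WT replicate 2 (adjusted p = 0.371) and then no longer passed the unadjusted threshold.

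Isotype shares were computed within the heavy chain, as counts per kilobase of the exons of each gene, so they do not depend on how much antibody RNA a lesion held. IgM made up 33%, 28.3% and 80.4% of heavy chain in WT and 89.1%, 84.1% and 55.8% in KO lesions. The 4 IgG genes together made up 43.1%, 60.8% and 12% in WT and 0.846%, 1.28% and 28.8% in KO lesions. IgA made up 23.4%, 10.7% and 7.37% in WT and 9.89%, 14.4% and 15.0% in KO lesions. The lesions did not sort by genotype. WT replicates 1 and 2 were rich in IgG, WT replicate 3 and KO replicates 1 and 2 were mostly IgM, and KO replicate 3 lay between them, inside the WT range for all 3 classes.

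The KO minus WT difference was 29.1 percentage points for IgM and -28.3 points for IgG (exact two-sided permutation test, p = 0.2 for each, 0.3 after Benjamini-Hochberg adjustment over the 3 classes). The IgM difference was 19.7 points without WT replicate 2 and 45.7 points without WT replicate 3, and the IgG difference was -17.2 and -41.7 points. For IgA it was -0.74 points (exact p = 0.9, adjusted 0.9), and it was 4.06 points without WT replicate 1 and 0.86 points without KO replicate 1. With lengths of the secreted form in place of all exons, the IgA difference was 2.50 points, so its sign depends on the length used. IgD took 0.15% to 0.487% of heavy chain, and IgE took 0.057% in WT replicate 2 and 0 elsewhere. The shares rested on 17342 to 308266 heavy chain counts per lesion, and the widest 95% Wilson interval of a share of raw counts extended 0.635 points to each side, for counting error only. Counting error was small beside the spread between lesions.

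**Figure D3:**
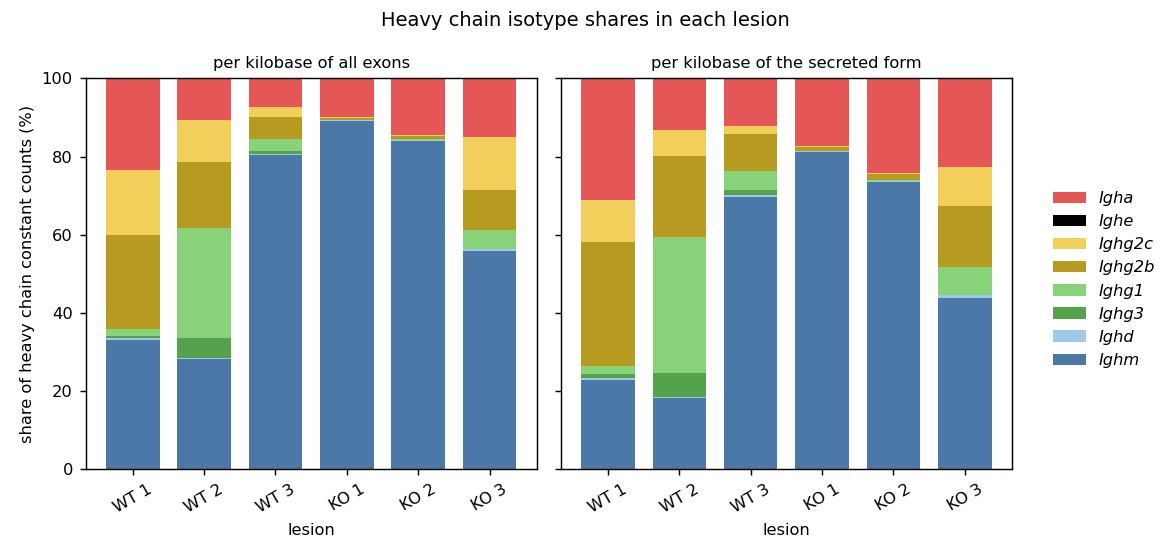
Stacked shares (%) of the 8 heavy chain constant genes in each lesion, per kilobase of all exons on the left and per kilobase of the secreted form on the right. IgG (greens and yellows) is lowest in KO replicates 1 and 2, at 0.846% and 1.28% per kilobase of all exons, and makes up 28.8% in KO replicate 3, between WT replicate 3 at 12% and WT replicate 1 at 43.1%.

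IgG varied widely within both groups. Its summed CPM was 242, 4431 and 122 in WT and 4.14, 5.38 and 142 in KO lesions. KO replicate 3 was 34.2-fold above KO replicate 1 and 26.3-fold above KO replicate 2, and WT replicate 2 was 36.5-fold above WT replicate 3. Within IgG, Ighg2b was the leading subclass per kilobase in WT replicates 1 and 3 and KO replicates 1 and 2, at 56.1%, 47.8%, 68.7% and 70.8%. Ighg1 led in WT replicate 2 with 46.4% of IgG, and Ighg2c led in KO replicate 3 with 47.3%.

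Ighg3 was the member whose share of heavy chain separated the groups. It made up 0.691%, 5.13% and 0.873% in WT and 0.040%, 0% and 0.061% in KO lesions (exact p = 0.1, the smallest possible). KO replicate 3 carried IgG at a level within the control range but almost no Ighg3, which was 0.213% of its IgG against 1.6%, 8.43% and 7.28% in the WT lesions. In KO replicate 1 the share within IgG was 4.68%, inside the WT range, on 12 counts. This gene was singled out after its values were seen.

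The light chain balance was also compared. Kappa made up 96.6%, 96.0% and 95.1% of kappa plus lambda constant counts per kilobase in WT and 92.1%, 93.1% and 87.0% in KO lesions. The groups did not overlap (exact p = 0.1, the smallest possible), and KO replicate 3 was the lowest. Without WT replicate 2 both controls remained above the KO lesions (exact p = 0.2). Among the lambda genes, Iglc1 was at 3.69, 59.6 and 4.04 CPM in controls against 9.28, 3.62 and 20.7 CPM in KO lesions, so 2 KO lesions exceeded 2 of the controls. Iglc2 was at 5.51, 61.5 and 17.7 CPM in controls against 3.98, 7.47 and 2.65 CPM in KO lesions.

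Light chain against heavy chain depended on the lengths used. Igkc over summed heavy chain per kilobase of all exons was 2.05, 2.03 and 1.80 in WT and 1.56, 1.68 and 1.61 in KO lesions, without overlap (exact p = 0.1). Per kilobase of the secreted form, the same ratio was 1.12, 1.04 and 1.24 in WT and 1.12, 1.16 and 1.00 in KO lesions, and the groups overlapped (exact p = 0.7). Jchain over the sum of Ighm and Igha, in raw counts, was 0.244, 0.204 and 0.219 in WT and 0.125, 0.194 and 0.229 in KO lesions (exact p = 0.3).

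**Figure D4:**
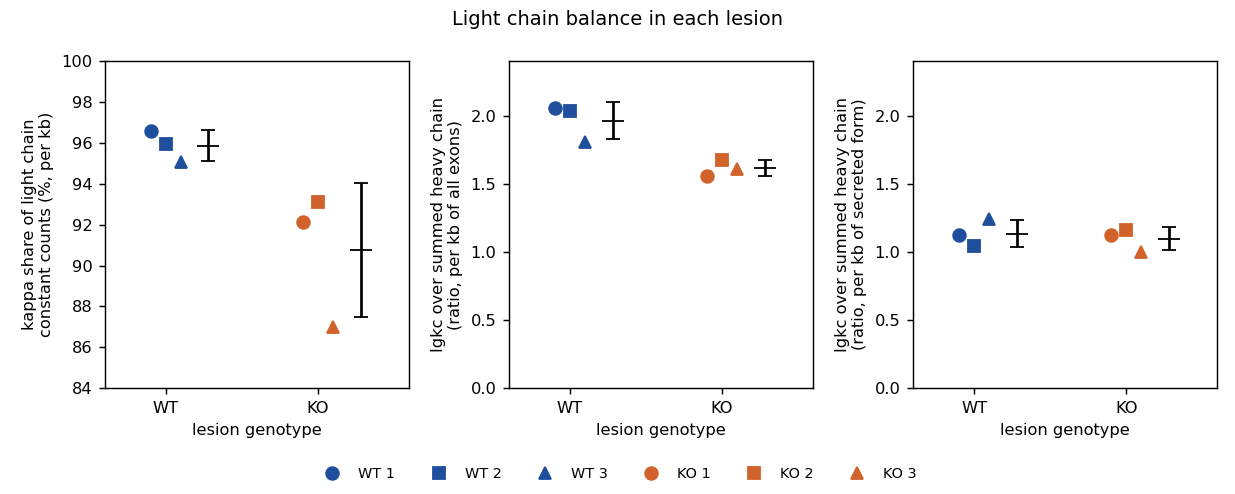
Kappa share of light chain constant counts (%, axis from 84 to 100), and the ratio of Igkc to summed heavy chain on both length scales, for each lesion with the mean and SD of each group (n = 3). The kappa share is 95.1% to 96.6% in WT and 87.0% to 93.1% in KO lesions, while the separation of the ratio per kilobase of all exons is not seen per kilobase of the secreted form.

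The fitted differences of B cell transcripts pointed to lower levels in KO lesions as well. Of 12 B cell markers tested, all 12 had a log2 fold change below 0 (48.6% of all genes did), with a median of -2.67. At an unadjusted p under 0.05, 7 of the 12 passed (8.16% of all genes did), and none of the 12 passed adjustment. In 8 of them the groups were fully separated, against 8.74% of all genes. Without WT replicate 2, 3 passed (9.64% of all genes did) and the median was -0.95. The B cell markers summed to 30.4, 145 and 27.8 CPM in controls against 21.6, 17.9 and 25.8 CPM in KO lesions, so WT replicate 2 stood apart here too. Cd79b, the signalling partner of the B cell receptor, was at 7.30, 21.3 and 4.63 CPM against 8.16, 5.68 and 5.75 CPM, which overlapped.

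The plasma cell list gave a mixed picture. Of 12 genes, 3 were lower and 1 was higher at an unadjusted p under 0.05, against 8.16% lower and 6.55% higher of all genes. Without WT replicate 2 none was lower and 1 was higher (9.64% and 4.21% of all genes). The median log2 fold change was -0.64, or -0.12 without WT replicate 2. Its most abundant genes, Xbp1, Sdc1 and Ell2, are also made by secretory and glandular epithelium. Xbp1, the regulator of the secretory apparatus, was at 237, 314 and 261 CPM in controls against 374, 406 and 277 CPM in KO lesions. Mzb1, a chaperone of antibody assembly, was at 0.576, 9.14 and 0.748 CPM in controls against 0.193, 0.497 and 0.167 CPM in KO lesions. Pou2af1, a coactivator of immunoglobulin transcription, was at 3.25, 37.7 and 3.29 CPM in controls against 1.02, 1.79 and 2.79 CPM in KO lesions. Both of these, chosen after their values were seen, were fully separated. Of the 12 genes of the list, 3 were fully separated with controls above, against 8.74% of all tested genes. Other genes of the list went the other way. Fkbp11, a chaperone of the secretory pathway, was the 1 higher gene, at 20.8, 14.3 and 16.4 CPM in controls against 70.1, 79 and 20.4 CPM in KO lesions (log2 fold change 1.72, unadjusted p = 0.0147), and Derl3 had a log2 fold change of 0.41.

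**Figure D5:**
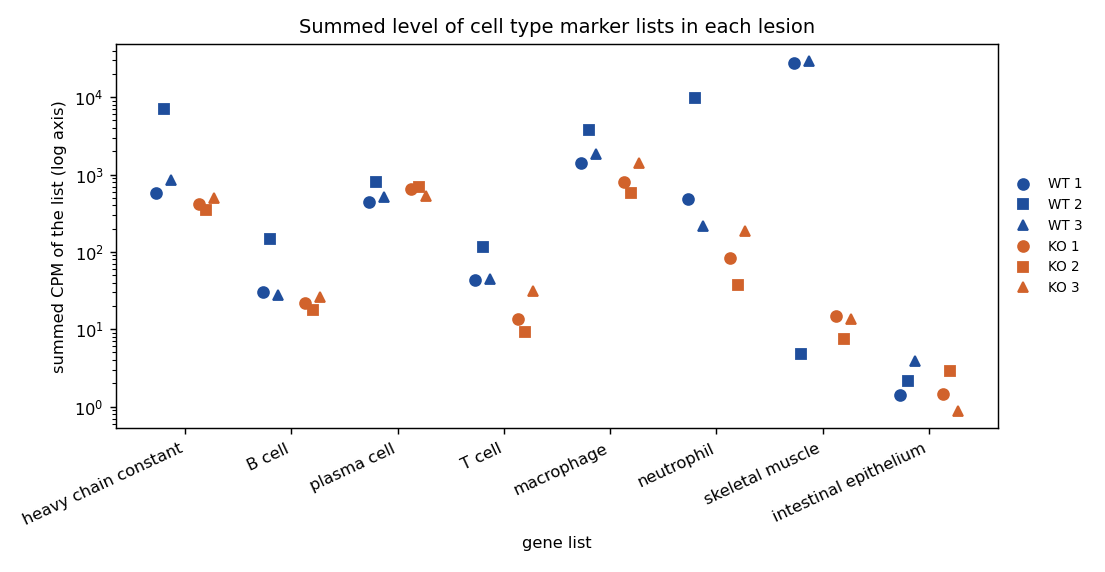
Summed CPM (log axis) of the heavy chain constant genes and of 7 marker lists in each lesion, with symbols as in the plot of the 10 genes. WT replicate 2 is the highest lesion for heavy chain, B cell, plasma cell, T cell, macrophage and neutrophil lists, and the skeletal muscle list is high in WT replicates 1 and 3.

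Genes of class switching did not move as one group. Of the 8 tested genes, 1 was lower and 2 were higher at an unadjusted p under 0.05, against 8.16% lower and 6.55% higher of all genes. None was lower and 1 was higher without WT replicate 2. Of 8 tested signals for switching and survival, 3 were lower and none was higher, and without WT replicate 2, 1 was lower and 1 was higher (9.64% and 4.21% of all genes). The T cell help receptor Cd40 was at 10.1, 23.8 and 19.1 CPM in controls against 3.33, 2.74 and 8.71 CPM in KO lesions, without overlap.

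Receptors that bind or transport antibody differed among themselves. Of 11 tested, 4 were lower at an unadjusted p under 0.05 (8.16% of all genes) and none was higher, and 1 was lower without WT replicate 2 (9.64%). Pigr, the epithelial transporter of polymeric IgA and IgM, was at 1054, 374 and 907 CPM in controls against 1789, 1572 and 847 CPM in KO lesions (log2 fold change 0.85, SE 0.47, adjusted p = 0.413 in edgeR). The endometrial epithelium markers summed to 20555, 11027 and 17470 CPM in controls against 36274, 28114 and 17086 CPM in KO lesions, which is the same order of lesions as for Pigr. Fcmr, the receptor for IgM on B cells, was at 0.897, 3.60 and 0.982 CPM in controls against 0.0351, 0.119 and 0.292 CPM in KO lesions. Of 13 tested genes of plasma cell homing, 6 were lower (8.16% of all genes) and none was higher, and 3 were lower without WT replicate 2 (9.64%). Ccl28, an epithelial chemokine for IgA plasma cells, was at 377, 45.6 and 230 CPM in controls against 705, 626 and 338 CPM in KO lesions. It was highest in KO replicates 1 and 2 and lowest in WT replicate 2, as was the sum of the epithelial markers. The part of epithelial content in the values of Pigr and Ccl28 was not tested. Cxcl13, which draws B cells into follicles, was at 12.8, 151 and 8.41 CPM in controls against 2.03, 2.66 and 4.42 CPM in KO lesions.

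Markers of other leukocytes were also highest in WT replicate 2. All 10 T cell markers had a log2 fold change below 0 (48.6% of all genes did). Of the 10, 9 passed the unadjusted p under 0.05 (8.16% of all genes), or 3 without WT replicate 2 (9.64%). Their sum was 43.5, 117 and 45.2 CPM in controls against 13.3, 9.14 and 31.4 CPM in KO lesions. Macrophage markers summed to 1393, 3797 and 1859 CPM in controls against 794, 582 and 1397 CPM in KO lesions, which overlapped. Of the 7 macrophage markers, 1 was lower at an unadjusted p under 0.05 (8.16% of all genes). Of the 7 neutrophil markers 3 passed (8.16% of all genes), and none did without WT replicate 2 (9.64%). Intestinal epithelium markers summed to 0.875 to 3.89 CPM in all lesions. The part of leukocyte content in the antibody results was not tested.

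Outside the immunoglobulin loci, the genes closest to the summed heavy chain across the 6 lesions, by the root mean square difference of centred log2 CPM over 14928 genes, were Il18rap (0.236), Rsad2 (0.238), Pilrb2 (0.249), Il1a (0.253) and Plek (0.259). Il18rap, a subunit of the interleukin 18 receptor, was at 6.75, 64.0 and 10.8 CPM in controls against 6.14, 3.73 and 7.17 CPM in KO lesions. These genes share the peak in WT replicate 2.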

How the data were processed

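Whole ectopic lesions were sequenced from poly(A) RNA (TruSeq Stranded mRNA). The deposited values are raw counts per gene made by the authors, whose notes name Trimmomatic, featureCounts, DESeq2 and GRCm39. The aligner, annotation and strand setting are not given in the sources used here. IDs without version matched a symbol for 51948 of 56884 genes, and IDs without a symbol held 3.04% to 3.56% of counts. Genes were filtered by filterByExpr, scaled by TMM and tested for KO against WT with edgeR 4.0.16 (quasi-likelihood, genotype only), with Benjamini-Hochberg adjustment over 18177 genes. CPM use TMM-scaled library sizes. Shares and sums were compared by exact permutation tests over lesions. Sequences and lengths come from GENCODE M21 transcripts. The fit was tested on simulated data. The groups came from the genotype label. Replicate numbers were not treated as pairs. Alternatives were DESeq2 1.42.0, limma 3.58.1, other scalings, filters and lengths, and leaving out each lesion. Members and lists were chosen with earlier results of these data known. All 10 members were named, with the 3 most abundant genes of a list. Mzb1, Pou2af1, Fkbp11, Derl3, Cd40, Fcmr, Cxcl13, Iglc1 and Iglc2, where outside this rule, were chosen after their values were seen. Some genes of the lists are not reported here by name.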

Additional observations from a re-analysis of the deposited data

How the results depend on the processing

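All 122 alternative log2 fold changes of KO over WT for single genes were below 0, and 3 of them had an adjusted p under 0.05. The count of 6 genes (unadjusted p under 0.05, log2 fold change below -1) ranged from 1 to 6 when 1 lesion was left out. Over all tested genes the same rule then called 551 to 1650 genes lower. With the replicate number as a block the count was 1, and 573 of 18177 genes were called lower. Same-numbered lesions did not deviate together (correlations 0.0318, -0.152 and -0.201), so the numbers were not taken as pairs. The count after adjustment, 0 in edgeR, was 1 with DESeq2 (Igkc), which gave no p for Ighg1, Ighg3 and Ighe because of its outlier filter. It was 3 with DESeq2 without outlier and independent filters, an alternative chosen after seeing the data (Igkc, adjusted p = 0.0277, Ighg3, adjusted p = 9.24e-04, and Ighe, whose counts come from WT replicate 2 alone). The IgA share difference of -0.74 points changed sign with raw counts (0.38) and with secreted lengths (2.50), also chosen after seeing the data, and ranged from -3.97 to 4.06 when 1 lesion was left out. The IgM difference then ranged from 19.7 to 45.7 points, the IgG difference from -41.7 to -17.2 points and the log2 heavy chain difference from -2.56 to -0.76. The causes were not tested. Low counts limit what can be said of Ighe and the KO values of Ighg3.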
